A study of Homo sapiens with 6 samples.

Results

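Tubulin is the protein of which microtubules are built, and 10 tubulin genes were followed here at the mRNA level in SKOV3 cells, a human ovarian cancer line, after knockdown of EIF5A2, a translation elongation factor. The genes were chosen by name, with earlier results of these data known. They were 4 alpha isotypes (TUBA1A, TUBA1B, TUBA1C and TUBA4A), 5 beta isotypes (TUBB, TUBB2A, TUBB3, TUBB4B and TUBB6) and the gamma tubulin gene TUBG1, 10 of the 58825 genes in the deposited table. All 10 passed the filter on low counts that left 16208 genes for testing. The study asked how EIF5A2 affects stemness and drug resistance in ovarian cancer, with patient samples, spheroids and xenografts. Its mRNA sequencing, 48 h after transfection, was a step to look for a mechanism.

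Both groups were SKOV3 cells, which are 1 established line, and both had been transfected with siRNA by the same reagent, INTERFERin. The control group, NC, received a negative control siRNA and the other group, si-EIF5A2, an siRNA against EIF5A2, with 3 libraries in each. A single sequence per group was given, so an effect of the EIF5A2 loss and an effect of the duplex itself cannot be told apart. Nothing in the labels says that the 3 libraries of a group came from separate cultures, and the p-values then measure only the spread between these libraries, which may be technical.

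Microtubules are hollow polymers of alpha and beta tubulin dimers, and the gamma tubulin ring complex is the template from which they start. Vertebrates carry several alpha and several beta genes, the isotypes, whose proteins differ mostly in an acidic tail that faces outward and is read and altered by motors and modifying enzymes. Cells also adjust tubulin mRNA to the amount of free dimer: when dimers are in excess, TTC5 recognises the first residues of newly made tubulin on the ribosome and the message is degraded.

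The last 63 bases of coding sequence of the beta genes and TUBG1 (GENCODE 29 transcripts, 5′ to 3′, with the codon before the stop codon in capitals) are shown because the beta genes differ from one another there.
TUBB: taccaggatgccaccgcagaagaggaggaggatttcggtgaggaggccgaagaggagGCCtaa
TUBB2A: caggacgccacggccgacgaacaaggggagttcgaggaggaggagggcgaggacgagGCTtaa
TUBB3: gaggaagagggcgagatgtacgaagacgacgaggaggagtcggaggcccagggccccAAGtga
TUBB4B: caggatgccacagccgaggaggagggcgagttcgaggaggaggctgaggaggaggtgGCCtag
TUBB6: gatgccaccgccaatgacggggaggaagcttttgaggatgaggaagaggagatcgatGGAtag
TUBG1: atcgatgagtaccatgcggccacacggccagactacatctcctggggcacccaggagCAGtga
The 20 codons before the stop held 11 codons for acidic residues in each of the 5 beta genes and 4 in TUBG1. Identity of the coding regions ran from 84.4% to 97.2% between alpha genes, from 81.0% to 87.7% between beta genes and from 55.4% to 58.1% between an alpha and a beta gene.

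The other end of the coding region carries the residues that mark a nascent chain as tubulin, and the first 12 bases are shown for 5 genes with the 3 codons after the start codon in capitals.
TUBA1B: atgCGTGAGTGC
TUBA4A: atgCGTGAATGC
TUBB: atgAGGGAAATC
TUBB2A: atgCGCGAGATC
TUBG1: atgCCGAGGGAA
TUBA1A and TUBA1C had the same 12 bases as TUBA1B, and TUBB4B the same as TUBB. TUBB3 and TUBB6 both began atgAGGGAGATC.

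How far a read can separate these genes follows from the same sequences. Of the 150-base windows along 1 transcript of each gene, 49.4% of those of TUBB2A were also found in another gene (TUBB2B, TUBB2BP1, TUBB3 or the readthrough gene over TUBB3), as were 19.1% of those of TUBA1B, 6.91% of TUBA1A, 6.77% of TUBA1C, 6.22% of TUBG1 and 2.50% of TUBB. TUBA4A, TUBB4B and TUBB6 shared no window of this length. For TUBB3 the figure was 88.7%, and 2.22% when a readthrough gene annotated over the same exons was set aside. In this respect the counts of TUBB2A, TUBB3 and the TUBA1 genes are less certain than those of TUBB4B, TUBB6 and TUBA4A. Whether the counting used strand is not given in the sources used here. Exons of a gene on the other strand overlapped 36.6% of the exon length of TUBA1B (its antisense gene TUBA1B-AS1), 25.0% of TUBA1C and 20.3% of TUBB6 (AFG3L2). The overlap was 18.1% for TUBA4A (STK16 and TUBA4B), 16.0% for TUBB, 14.3% for TUBA1A, 5.9% for TUBB4B and 5.8% for TUBG1. TUBB2A and TUBB3 had none.

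The estimated counts summed to 46900204 to 74142267 per library, and the low values rose in steps of 3.78 to 3.91 counts, so that a fragment was worth nearly 4 counts. A level is given below in CPM, the counts of a gene per 1000000 counts of its library after TMM scaling, and 3 fragments corresponded to 0.16 to 0.242 CPM. EIF5A2 itself measured 27.8, 29.8 and 29.9 CPM in the NC libraries and 2.76, 4.04 and 4.27 CPM in the si-EIF5A2 libraries, 12.7% of the control. Of the 9 epithelial markers, KRT8 measured 608 ± 49.1 CPM in NC (SD, n = 3), whereas EPCAM (1.55 ± 0.0962) and KRT19 (3.22 ± 0.571) were low and MUC16 was listed at 0, and the summed CPM of 9 markers of leukocytes, endothelium and neurons was 4.19 to 5.99 in NC and 0.235 to 1.0 in si-EIF5A2.

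The 2 most abundant alpha genes and the 2 most abundant beta genes all fell after EIF5A2 knockdown, as did TUBG1, while TUBB2A and TUBB6 rose. A gene was said to have risen or fallen when edgeR's quasi-likelihood test gave a Benjamini-Hochberg adjusted p under 0.05 over all 16208 genes and a fold change over 1.5. By this rule 7 of the 10 genes changed, 5 lower and 2 higher. Across all genes tested 24.6% changed, 11.1% higher and 13.6% lower. The same 7 genes were those whose 3 NC and 3 si-EIF5A2 values did not overlap, and 51.2% of all genes tested did not overlap either. The median log2 fold change was -0.56 for the 10 genes and -0.01 for all genes tested. Because the 10 genes were chosen with earlier results of these data known, these comparisons with all genes do not test the set. In bulk RNA, fewer cells of a kind and less RNA per cell cannot be told apart.

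**Figure D1:**
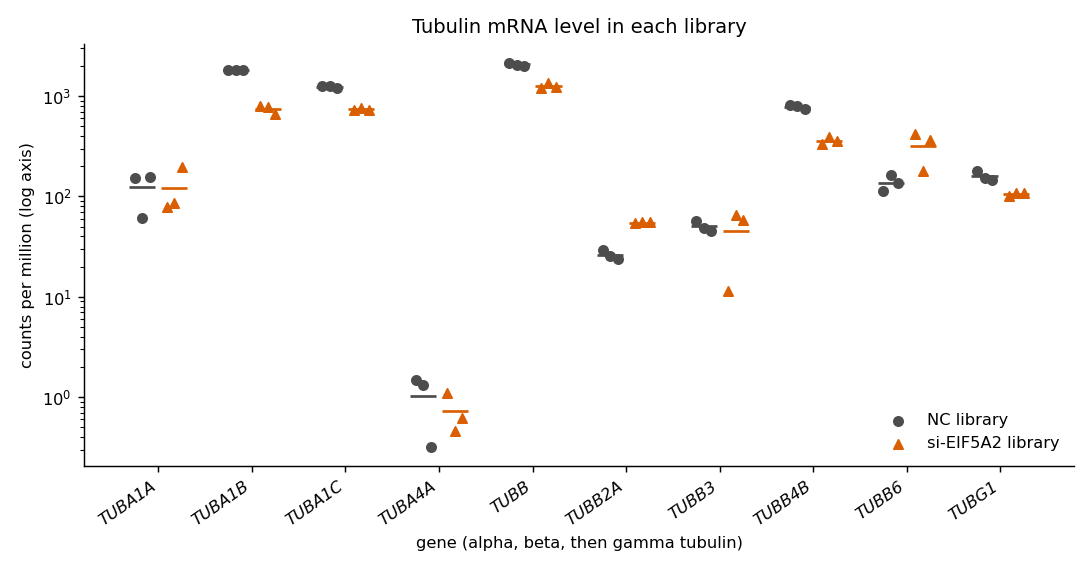
Level of the 10 tubulin genes in CPM on a log axis, with 3 NC libraries (circles), 3 si-EIF5A2 libraries (triangles) and the group mean (line). TUBA1B, TUBA1C, TUBB, TUBB4B and TUBG1 sit lower in all 3 si-EIF5A2 libraries, TUBB2A and TUBB6 sit higher, and the groups overlap for TUBA1A, TUBA4A and TUBB3.

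Among the alpha genes, TUBA1B, a housekeeping isotype of dividing cells on chromosome 12 (GRCh38 chr12:49127782-49131397, minus strand), changed most. It stood at 1803, 1817 and 1838 CPM in NC replicates 1 to 3 and at 799, 772 and 671 CPM in si-EIF5A2 replicates 1 to 3. The groups were far apart, with no control library under 1803 CPM and no knockdown library over 799 CPM. The level after knockdown was 41.1% of the control, a log2 fold change of -1.28 (SE 0.08; adjusted p = 2.06e-05 by edgeR). TUBA1B-AS1, the antisense gene whose exons overlap it, measured 298, 335 and 328 CPM in NC and 75.1, 177 and 158 CPM in si-EIF5A2, a log2 fold change of -1.23 (SE 0.33). Reads of the overlapping stretch cannot be assigned to either gene without strand.

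TUBA1C, which lies close by on the other strand (chr12:49188736-49274603, plus strand), is the second abundant alpha isotype of these cells. Its level was 1254, 1255 and 1207 CPM in NC and 727, 761 and 719 CPM in si-EIF5A2. The 6 libraries formed 2 tight sets that did not overlap, and the mean after knockdown was 59.4% of the control (log2 fold change -0.75, SE 0.06; adjusted p = 7.58e-05 by edgeR).

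TUBA1A (chr12:49184796-49189324, minus strand), the alpha gene best known from developing neurons, varied widely within both groups. The NC libraries held 154, 61.3 and 158 CPM and the si-EIF5A2 libraries 78.4, 85.3 and 197 CPM. NC replicate 2 and si-EIF5A2 replicate 3 stood apart from their groups, and the groups overlapped. The log2 fold change was -0.05 with a 95% confidence interval from -1.45 to 1.36, so neither a fall as large as that of TUBA1B nor a rise of similar size is outside the interval. Its sign turned when any 1 of 4 libraries was left out, from -0.61 without si-EIF5A2 replicate 3 to 0.18 without si-EIF5A2 replicate 1.

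The 3 TUBA1 genes share sequence and were also summed. The sum was 3211, 3133 and 3203 CPM in NC and 1605, 1618 and 1587 CPM in si-EIF5A2. In si-EIF5A2 replicate 3, where TUBA1A was highest, TUBA1B was lowest, and the sum of the 3 genes was close to that of the other libraries of its group. In NC replicate 2, where TUBA1A was lowest, the sum was the lowest of its group. Fitted as 1 gene, the sum fell to 50.4% of the control (log2 fold change -0.99, SE 0.06; adjusted p = 1.39e-05 by edgeR).

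TUBA4A (chr2:219249711-219278170, minus strand), an isotype found in blood platelets, muscle and brain, was near the limit of detection. It measured 1.48, 1.31 and 0.319 CPM in NC and 1.10, 0.460 and 0.625 CPM in si-EIF5A2. The groups overlapped, NC replicate 3 being the lowest of all 6 libraries, and the interval of the log2 fold change ran from -1.94 to 0.89.

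Of the beta genes, TUBB (chr6:30720201-30725426, plus strand), the class I isotype present in nearly all tissues, had the highest CPM of all 10. It was at 2129, 2065 and 2015 CPM in NC and at 1208, 1337 and 1229 CPM in si-EIF5A2. Each knockdown library was below each control library, at 60.8% of the control on average (log2 fold change -0.72, SE 0.07; adjusted p = 0.000135 by edgeR).

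TUBB4B (chr9:137241213-137243707, plus strand), another widely expressed beta isotype, fell further than TUBB. Its levels were 816, 790 and 735 CPM in NC and 336, 387 and 356 CPM in si-EIF5A2, again without overlap. The mean after knockdown was 46.1% of the control (log2 fold change -1.12, SE 0.08; adjusted p = 3.5e-05 by edgeR). The log2 ratio of TUBB4B to TUBB, which does not depend on library scaling, moved from -1.41 ± 0.04 in NC to -1.81 ± 0.03 in si-EIF5A2 (SD, n = 3 each), and the groups did not overlap (exact permutation test, 2-sided p = 0.1, the smallest that 3 against 3 allows).

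TUBB2A (chr6:3153669-3157526, minus strand), a class II beta isotype abundant in neurons, moved the other way. It rose from 29.3, 25.6 and 24.1 CPM in NC to 53.8, 56.0 and 55.1 CPM in si-EIF5A2. The 3 knockdown libraries lay close together and all above the controls, at 2.09 times the control level (log2 fold change 1.06, SE 0.10; adjusted p = 0.000125 by edgeR). Its near-identical neighbour TUBB2B measured 16.4, 12.9 and 13.1 CPM in NC and 16.9, 22.8 and 0.563 CPM in si-EIF5A2, the last value being the only low one. Because reads can be divided between the pair in more than one way, both were also summed into 1 gene, and the sum rose 1.69-fold (log2 fold change 0.76, SE 0.14; adjusted p = 0.00434 by edgeR).

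TUBB6 (chr18:12307669-12344320, plus strand), the class V beta isotype, had the largest mean rise and the least even one. The NC libraries held 113, 163 and 136 CPM and the si-EIF5A2 libraries 420, 181 and 365 CPM. All 3 knockdown libraries were above all 3 controls, but si-EIF5A2 replicate 2 lay much nearer to the controls than the other two. The mean was 2.35 times the control (log2 fold change 1.23, SE 0.34, 95% interval 0.36 to 2.10; adjusted p = 0.0411 by edgeR). This call rested on all libraries but 1: leaving out NC replicate 1, 2 or 3 or si-EIF5A2 replicate 1 or 3 gave log2 fold changes of 1.11, 1.37, 1.22, 0.99 and 1.13 with adjusted p of 0.13, 0.0805, 0.12, 0.104 and 0.115, and without si-EIF5A2 replicate 2 it was 1.52 with an adjusted p of 0.0011.

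TUBB3 (chr16:89921392-89938761, plus strand), the class III isotype of neurons that is also studied in taxane-treated tumours, gave no stable direction. Its levels were 56.9, 48.1 and 45.8 CPM in NC and 11.5, 64.8 and 58.8 CPM in si-EIF5A2. The last 2 knockdown libraries were above every control and the first was far below, so that the log2 fold change was -0.16 (95% interval -1.82 to 1.5) with all libraries and 0.29 (adjusted p = 0.125 by edgeR) without si-EIF5A2 replicate 1.

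TUBG1 (chr17:42609676-42615234, plus strand) encodes gamma tubulin, which nucleates microtubules at the centrosome. It was at 180, 154 and 144 CPM in NC and at 101, 107 and 108 CPM in si-EIF5A2, with no overlap, and the mean after knockdown was 66.2% of the control (log2 fold change -0.60, SE 0.09; adjusted p = 0.00184 by edgeR). The fall was close to the 1.5-fold limit and no longer reached it without NC replicate 1 (log2 fold change -0.50) or without si-EIF5A2 replicate 1 (-0.57), with adjusted p of 0.00324 and 0.00892.

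**Figure D2:**
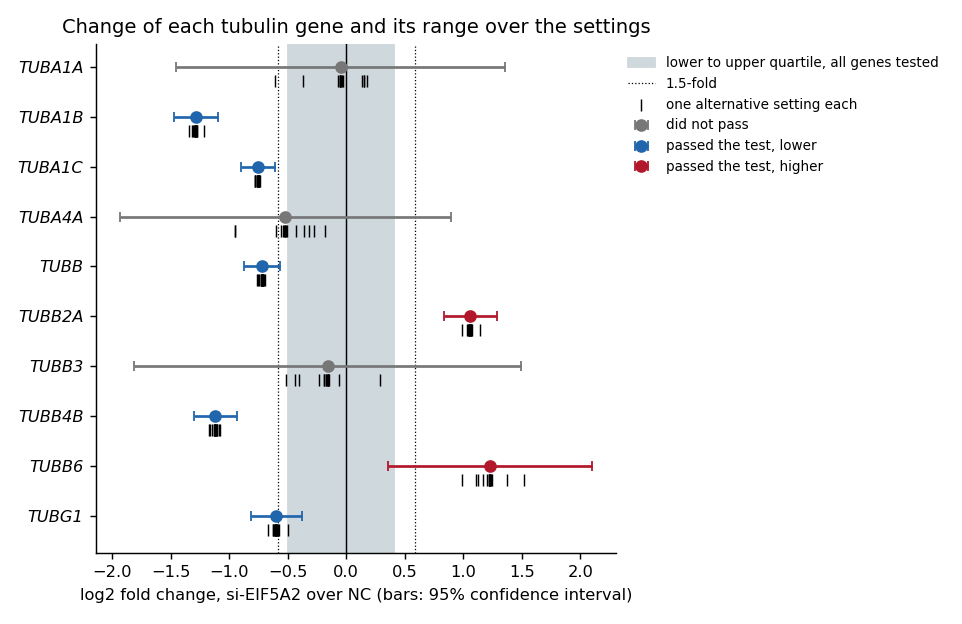
Log2 fold change (si-EIF5A2 over NC) of each gene with its 95% confidence interval, and below it a tick for the value under each alternative setting. The grey band spans the lower to upper quartile of all genes tested (-0.50 to 0.41) and the dotted lines mark 1.5-fold; the intervals of TUBA1A, TUBA4A and TUBB3 cross 0.

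The genes of each class were summed in CPM, which is a level relative to the library and not an amount of message per cell. The 4 alpha genes together held 3212, 3135 and 3204 CPM in NC and 1606, 1618 and 1587 CPM in si-EIF5A2, and the 5 beta genes 3145, 3092 and 2956 CPM against 2029, 2026 and 2063 CPM. Neither sum overlapped between groups (exact permutation test, 2-sided p = 0.1, n = 3 each). The alpha sum was 50.4% of the control and the beta sum 66.6%. Fitted as 1 gene each beside all others, a choice made after the data were seen, the alpha sum fell by 0.99 (SE 0.06) and the beta sum by 0.59 (SE 0.06) on the log2 scale. All 10 genes together took 0.632% to 0.644% of the counts in NC and 0.37% to 0.381% in si-EIF5A2.

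To compare levels between genes, CPM was divided by the length of the merged exons in kilobases. In NC the order was TUBB (616 ± 17.1 CPM per kilobase, SD, n = 3), TUBA1B (509 ± 4.94), TUBB4B (370 ± 19.6), TUBA1C (267 ± 5.84), TUBG1 (66.1 ± 7.65), TUBA1A (36.3 ± 15.9), TUBB6 (33.3 ± 6.05), TUBB2A (15.2 ± 1.57), TUBB3 (11.3 ± 1.33) and TUBA4A (0.254 ± 0.154). TUBA1A and TUBB6 overlapped in this order and the other neighbours did not. In si-EIF5A2 the order per kilobase was TUBB (374 ± 20.6), TUBA1B (209 ± 18.9), TUBB4B (170 ± 12.2), TUBA1C (159 ± 4.78), TUBB6 (78.2 ± 30.3), TUBG1 (43.7 ± 1.6), TUBA1A (35.1 ± 19.5), TUBB2A (31.8 ± 0.617), TUBB3 (10.2 ± 6.58) and TUBA4A (0.178 ± 0.0808). Here TUBB4B overlapped TUBA1C, TUBB6 overlapped TUBG1, and TUBA1A overlapped TUBB6, TUBG1 and TUBB2A. The order depends on the length used: per kilobase of 1 transcript, TUBA1B (1118 ± 10.9) stood above TUBB (775 ± 21.5) in NC, and below it in si-EIF5A2 (459 ± 41.6 against 471 ± 25.9, overlapping).

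Because the genes moved by different amounts, the make-up of each pool shifted. TUBA1B made up 61.5%, 63.7% and 62.6% of the alpha pool per kilobase of merged exons in NC and 55.4%, 53.3% and 46.8% in si-EIF5A2, while TUBA1C went from 33%, 34% and 31.7% to 38.9%, 40.5% and 38.8%. In the beta pool TUBB4B went from 35.9%, 35.5% and 34.6% to 24.3%, 27.3% and 25.3%, TUBB6 from 2.54%, 3.75% and 3.28% to 15.6%, 6.55% and 13.3%, and TUBB2A from 1.58%, 1.41% and 1.39% to 4.76%, 4.82% and 4.78%. None of these 5 shares overlapped between the groups (exact permutation test, 2-sided p = 0.1 for each). Together TUBB2A and TUBB6 rose from 4.65 ± 0.517% to 16.6 ± 4.66% of the beta pool.

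TUBB kept the largest share of the beta pool, at 58.9 ± 0.678% in NC and 56.3 ± 2.51% in si-EIF5A2, and these shares overlapped (exact permutation p = 0.3). With the length of 1 transcript in place of merged exons they were 56.9 ± 0.727% and 52.0 ± 3.34% and did not overlap. The share of TUBA1A was 4.44 ± 1.90% in NC and 8.73 ± 4.89% in si-EIF5A2, with the highest NC library at 5.61% and the lowest si-EIF5A2 library at 5.68%. This gain rested largely on si-EIF5A2 replicate 3, at 14.4%: it was 4.29 percentage points with all libraries and 1.47 without that one. The ratio of the alpha to the beta pool was 0.761, 0.757 and 0.817 in NC and 0.617, 0.603 and 0.600 in si-EIF5A2, without overlap. Its absolute value, like the order above, depends on the length chosen (1.17 ± 0.0521 in NC and 0.847 ± 0.0243 in si-EIF5A2 per kilobase of 1 transcript).

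**Figure D3:**
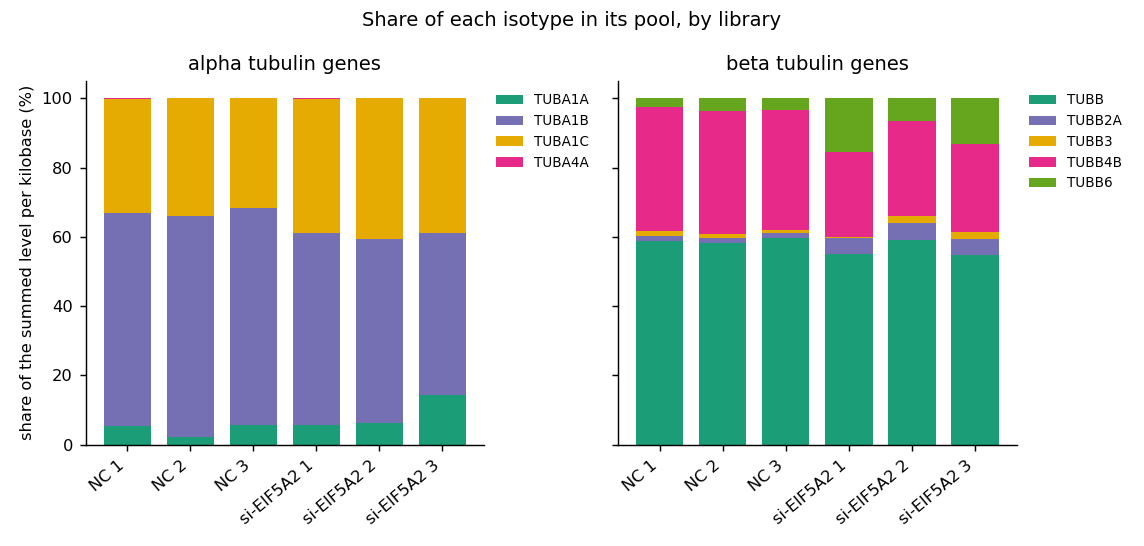
Share of each isotype in the summed level per kilobase of merged exons of the alpha genes (left) and the beta genes (right), as stacked bars for each of the 6 libraries. TUBA1B and TUBB4B take smaller shares in the si-EIF5A2 libraries and TUBA1C, TUBB2A and TUBB6 larger ones; TUBB6 reaches 15.6% in si-EIF5A2 replicate 1 and 6.55% in replicate 2.

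Promoter sequence is shown for 5 of the genes that changed, 3 that fell (TUBA1B, TUBA1C and TUBB4B) and both that rose (TUBB2A and TUBB6), to set the sequence beside the direction. The windows run from 250 bases before to 50 bases after a RefSeq start site (GRCh38.p14, 5′ to 3′ on the gene's strand), and for genes with several start sites the one nearest to the transcript used above was taken. Capitals mark the CCAAT box (CCAAT or its reverse complement ATTGG), which the factor NF-Y binds, and the element TTTGAA (or TTCAAA), known as the cell cycle genes homology region.
TUBA1B, chr12:49131346-49131645, minus strand: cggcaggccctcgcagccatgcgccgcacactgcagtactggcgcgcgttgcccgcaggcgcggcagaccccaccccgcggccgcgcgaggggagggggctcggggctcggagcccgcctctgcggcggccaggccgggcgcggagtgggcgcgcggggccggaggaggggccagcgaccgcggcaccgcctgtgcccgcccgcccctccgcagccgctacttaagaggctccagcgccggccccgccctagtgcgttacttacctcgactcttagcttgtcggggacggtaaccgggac
TUBA1C, chr12:49264832-49265131, plus strand: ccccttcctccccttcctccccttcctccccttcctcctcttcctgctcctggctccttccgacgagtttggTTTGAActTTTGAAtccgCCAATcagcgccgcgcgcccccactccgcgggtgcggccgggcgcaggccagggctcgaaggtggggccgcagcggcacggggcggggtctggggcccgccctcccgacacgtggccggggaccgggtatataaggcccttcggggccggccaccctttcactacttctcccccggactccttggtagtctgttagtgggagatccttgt
TUBB4B, chr9:137241037-137241336, plus strand: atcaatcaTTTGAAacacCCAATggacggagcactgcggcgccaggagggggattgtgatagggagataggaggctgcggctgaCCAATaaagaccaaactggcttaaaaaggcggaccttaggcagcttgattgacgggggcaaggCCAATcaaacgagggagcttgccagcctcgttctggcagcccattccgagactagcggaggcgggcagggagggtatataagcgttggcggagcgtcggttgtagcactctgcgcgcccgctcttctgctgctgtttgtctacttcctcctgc
TUBB2A, chr6:3157495-3157794, minus strand: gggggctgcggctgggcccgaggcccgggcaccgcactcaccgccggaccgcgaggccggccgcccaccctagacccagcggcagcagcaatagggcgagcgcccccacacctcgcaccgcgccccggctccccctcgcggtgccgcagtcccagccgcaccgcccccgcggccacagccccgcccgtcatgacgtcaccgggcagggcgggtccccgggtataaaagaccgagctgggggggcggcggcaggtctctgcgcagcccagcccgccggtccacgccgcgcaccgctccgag
TUBB6, chr18:12307991-12308290, plus strand: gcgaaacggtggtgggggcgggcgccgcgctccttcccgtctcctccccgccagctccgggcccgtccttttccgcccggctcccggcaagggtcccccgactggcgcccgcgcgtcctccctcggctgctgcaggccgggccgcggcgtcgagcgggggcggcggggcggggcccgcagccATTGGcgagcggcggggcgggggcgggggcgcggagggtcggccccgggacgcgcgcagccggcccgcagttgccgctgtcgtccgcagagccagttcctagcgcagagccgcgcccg
A CCAAT box was found in the windows of 7 of the 10 genes, and in 34.6% of 34796 RefSeq promoter windows of the same length. TUBA1B, TUBA4A and TUBB2A had none. TUBB4B held 3, at 232, 166 and 103 bases before the start site, as did 3.25% of all windows (3 or more). TTTGAA was present in TUBB4B, 242 bases before the start, and 2 times in TUBA1C, 178 and 170 bases before it, against 15.2% of all windows. Both elements stood in the same window in TUBB4B and TUBA1C and in 5.93% of all windows, and no 2 of these matches overlapped each other. The related letters TTTAAA were in none of the 10 windows (12.2% of all). TTTGGCGC, a motif of E2F factors, was found on either strand only in TUBG1, 31 bases before the start (0.652% of all windows), and TTTCCCGC in none (1.63%). The GC box GGGCGG was in 8 of the 10 (44.9%). A match in these letters is a description of the sequence and not a bound site.

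Of 12 further tubulin genes 5 passed the filter on low counts. TUBG2, the second gamma tubulin gene, fell from 27.8, 29.4 and 26.1 CPM in NC to 11.7, 11.8 and 11.7 CPM in si-EIF5A2 (log2 fold change -1.24, SE 0.10; adjusted p = 5.85e-05 by edgeR). TUBAL3 had 0.315 to 0.489 CPM in NC and no count in any si-EIF5A2 library, a call close to the level of 3 fragments. The delta and epsilon tubulin genes TUBD1 and TUBE1, which serve centrioles, measured 3.77 ± 1.04 against 4.82 ± 0.825 CPM and 24 ± 2.87 against 23.6 ± 2.36 CPM and did not pass the test.

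The genes that make, alter and organise tubulin were taken from 8 lists of 121 genes in all, of which 100 were tested. These lists too were chosen with earlier results of these data known. In these lists 25 genes changed, 20 lower and 5 higher, which is 25.0% of those tested and close to the 24.6% of all genes, and the median log2 fold change was -0.14. The lists include 3 genes that also stand in the list of G2/M markers used below (CKAP5, NUSAP1 and TPX2), and without them 22 of 97 changed.

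Folding of tubulin starts in prefoldin and the chaperonin CCT. Of 14 genes in this list 1 changed, 2 had a negative log2 fold change, and the median was 0.16. TCP1, CCT2 and CCT6A were higher by less than the fold limit, with log2 fold changes of 0.45, 0.48 and 0.49 (adjusted p = 0.00632, 0.00292 and 0.00278 by edgeR). CCT5, a subunit of the CCT ring, rose from 404, 380 and 478 CPM in NC to 814, 754 and 722 CPM in si-EIF5A2 (log2 fold change 0.86, SE 0.10; adjusted p = 0.000376 by edgeR). Of the 7 cofactors that assemble the dimer, ARL2, a small GTPase that works with them, fell from 147 ± 19.4 to 95.1 ± 4.41 CPM, and the other 6 did not pass. Of these, TBCD and TBCE missed only the fold limit, with log2 fold changes of -0.56 and 0.57 (adjusted p = 0.000893 and 0.00315 by edgeR). The 3 genes of tubulin mRNA autoregulation moved less than the fold limit. TTC5 was at 44.2, 46.6 and 45.9 CPM in NC and 28.4, 35.8 and 34.0 CPM in si-EIF5A2 (log2 fold change -0.48, SE 0.11; adjusted p = 0.00891 by edgeR). CNOT11 measured 69.1 ± 3.15 against 57.3 ± 0.942 CPM and SCAPER 2.61 ± 0.684 against 2.67 ± 0.413 CPM.

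Among 17 tested enzymes that modify tubulin, 4 fell and 1 rose. HDAC6, a deacetylase of alpha tubulin, fell from 16 ± 0.403 to 8.71 ± 0.337 CPM, and MATCAP1, a peptidase that removes the tyrosine at the end of alpha tubulin, from 7.61 ± 0.345 to 4.15 ± 1.05 CPM. TTLL7, which adds glutamates mainly to beta tubulin, rose from 3.48 ± 0.620 to 7.45 ± 0.204 CPM. TTL, which adds the tyrosine, measured 52.5 ± 1.04 against 57.7 ± 14.8 CPM and did not pass.

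The partners of TUBG1 were lower more often than higher. Of 20 genes of the gamma tubulin complex and of augmin, which starts new microtubules on existing ones, 7 fell (35%, against 13.6% of all genes), the other 13 did not pass and 17 had a negative log2 fold change, with a median of -0.53. Augmin subunits gave the largest falls: HAUS8 went from 14.8, 12.5 and 10.8 CPM to 1.96, 1.80 and 3.23 CPM (log2 fold change -2.45, SE 0.26) and HAUS5 from 15.1, 14.7 and 14.8 CPM to 4.11, 6.05 and 5.90 CPM (log2 fold change -1.47, SE 0.17). NEDD1, which brings the complex to the spindle, was at 15.8 ± 0.978 and 15.2 ± 1.64 CPM and did not pass.

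Of 27 tested proteins that bind microtubules 5 fell and 2 rose. TPX2, which drives spindle assembly, fell from 290, 330 and 352 CPM to 41.5, 43.7 and 41.2 CPM (log2 fold change -2.94, SE 0.09), and NUSAP1, a spindle protein, from 33.8 ± 4.84 to 7.65 ± 1.10 CPM. The plus-end binding protein genes CLIP1 and MAPRE3 rose, from 28.3 ± 0.831 to 49.9 ± 8.34 CPM and from 2.83 ± 0.647 to 5.93 ± 0.826 CPM. Without the 3 genes shared with the G2/M list, 2 fell and 2 rose among 24 tested. The falls were those of PRC1, from 75.6 ± 13.9 to 18.0 ± 1.81 CPM, and MAP7D3, from 34.6 ± 0.908 to 20.8 ± 1.75 CPM. The G2/M list need not hold every gene of these phases. Of 7 tested genes of microtubule severing, KATNAL1, a katanin-like enzyme, rose from 16.3 ± 1.82 to 27.5 ± 2.69 CPM.

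**Figure D4:**
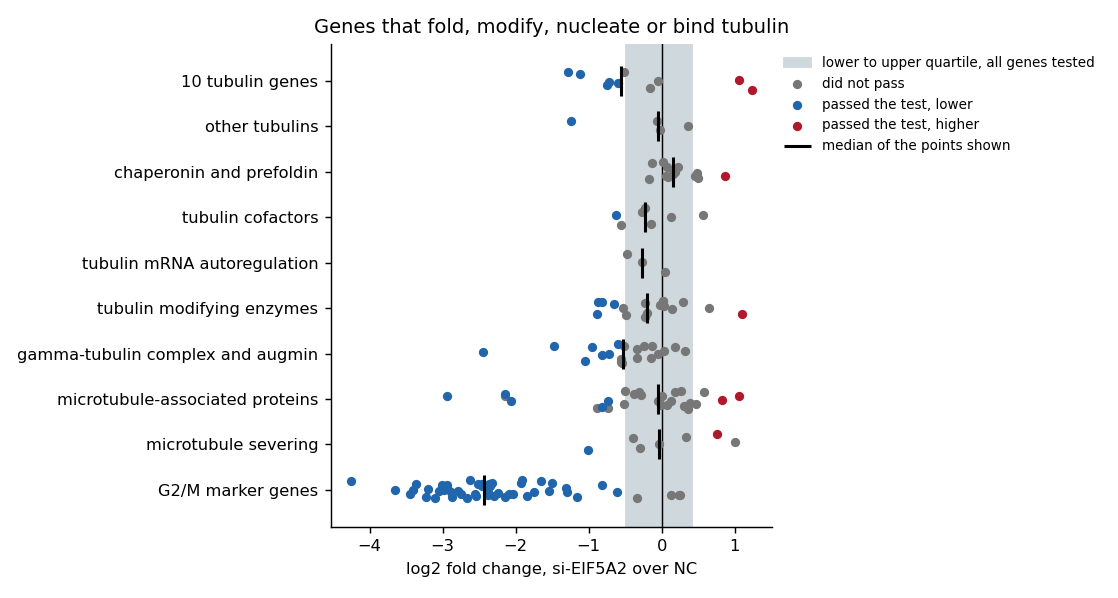
Log2 fold change (si-EIF5A2 over NC) of each tested gene in the tubulin set, the microtubule lists and the G2/M list, 1 point a gene, leaving out TUBAL3, which has no count in si-EIF5A2; the black bar is the median of the points shown. The gamma tubulin complex and augmin points lie mostly left of 0, and the chaperonin and prefoldin points mostly right of it. The G2/M markers lie far to the left, with a median of -2.44.

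The list of G2 and M phase markers used here held no tubulin gene of this set. This is a property of the chosen list and not a result. Absence from the list does not show that a gene's level is independent of these phases. Of the 53 markers, 49 fell and the other 4 did not pass. Their summed level was 4369 to 4733 CPM in NC and 1400 to 1556 CPM in si-EIF5A2. KIF23, a kinesin of the midbody, went from 34.0 ± 3.47 to 1.78 ± 0.193 CPM and CDC20, an activator of the anaphase-promoting complex, from 355 ± 7.94 to 28.3 ± 6.35 CPM. Their part in the tubulin result was not tested. Of 8 epithelial markers tested 3 fell (KRT7, KRT8 and PAX8), against 13.6% of all genes, and EPCAM, KRT18, KRT19, ERBB2 and WT1 did not pass. KRT7 went from 382 ± 26.1 to 209 ± 8.75 CPM and the transcription factor PAX8 from 106 ± 13.8 to 61 ± 4.73 CPM, and the summed level of the epithelial markers was 1508 to 1675 CPM in NC and 958 to 1170 CPM in si-EIF5A2. Of the markers of other cell types 4 were tested and the neuronal genes RBFOX3 and SYP fell, from 2.43 ± 0.725 to 0.0766 ± 0.133 CPM and from 0.561 ± 0.0832 to 0.0261 ± 0.0452 CPM, while the leukocyte markers PTPRC and CD3E were listed at 0 in every library.

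The genes whose level over the 6 libraries was most like that of TUBA1B, the gene of the set with the largest change, were taken by Pearson correlation of log2 CPM. They were PRR11-AS1 (r = 0.9995), CHAF1B (0.9995), NUP188 (0.9992), CDH5 (0.9989) and PTH1R (0.9988). The 6 libraries stand at 2 levels, 1 per group, and the values are given as a description. The size of the change differed among the 5, with log2 fold changes of -2.16, -1.91, -0.30, -5.08 and -2.48 against -1.28 for TUBA1B.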

How the data were processed

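mRNA libraries of SKOV3 cells (3 NC, 3 si-EIF5A2) were sequenced by the authors as paired reads of 150 bases, and expression was estimated with StringTie and ballgown. The deposited table holds estimated counts per Ensembl gene, rounded, in 1 column per library. The labels' processing notes list Bowtie 0.12.2 and the mouse builds mm8 and mm9, which cannot belong to human gene identifiers; the aligner and build are not given in the sources used here.

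The members and lists were chosen with earlier results of these data known. Counts were filtered (filterByExpr), scaled by TMM and tested with edgeR 4.0.16 (R 4.3.3) over 16208 genes with condition as the only term. On simulated counts with 200 changed genes, edgeR recovered 50% of 2-fold and 78% of 4-fold changes, and 7.91% of its calls were false. DESeq2 recovered 59% and 83%, and 27.9% of its calls were false. In the data themselves 3992 genes (24.6%) passed, far more than 200, so these shares need not hold there. All 10 members, up to 2 rises and 2 falls that passed in each list, by size, and the 5 genes most like the top member were named by rule; other listed genes were named after their values were seen. Sums and shares were compared by exact permutation. Symbols, positions and coding sequence came from GENCODE 29 (GRCh38; 58552 of 58825 identifiers matched) and promoters from RefSeq (GRCh38.p14), with all 10 members matched. Alternatives were DESeq2 1.42.0, other scalings and filters, a replicate block, summed paralogs, counts divided by their step, other call rules and leaving out each library. Some items are not reported here.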

Additional observations from a re-analysis of the deposited data

How the results depend on the processing

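The falls of TUBA1B, TUBA1C, TUBB and TUBB4B and the rise of TUBB2A passed in every alternative fit run on them (14 or 15 each: DESeq2, 3 other scalings, 2 other filters, the replicate block, counts divided by their step, summed paralogs where the gene keeps its own count, and 6 fits without 1 library). TUBB6 passed in 8 of 15 and TUBG1 in 13 of 15. The count of members that rose was 1 instead of 2 with no filter on low counts and with the replicate block (TUBB6 adjusted p = 0.113 and 0.144), and 1 to 2 over the fits without 1 library. Under the threshold of the study's methods (unadjusted p and 2-fold), 4 members passed, 2 of them lower, as did 11 of the listed microtubule genes and 2370 of all genes; with no limit on the fold change, 41 listed genes passed, against 25. Without 1 library the log2 fold change of TUBA1A ran from -0.61 to 0.18 and that of TUBB3 from -0.52 to 0.29, changing sign in 4 and 1 of 6 fits; TUBA1A was 0.14 and 0.15 without NC replicates 1 and 3, and 0.18 and 0.15 without si-EIF5A2 replicates 1 and 2. The gain in the share of TUBB2A was 3.33 percentage points per kilobase of merged exons and 2.59 with 1 transcript. The cause of these moves was not tested. After the group mean of each gene was taken off, same-numbered libraries of the 2 groups correlated at -0.0244, 0.00522 and -0.00269. Libraries with different numbers correlated at -0.0412 to 0.0436. These values give no sign of pairing by number, but with 3 libraries a group they cannot exclude it. With the replicate block 6 members and 3731 of all genes passed. Depth limits TUBA4A and TUBAL3, which lie near 3 fragments in some libraries.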
